A study of Homo sapiens with 5 samples.

Results

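Matrix metalloproteinases (MMPs) and their inhibitors, the tissue inhibitors of metalloproteinases (TIMPs), were examined in MCF10A SAM cells. Some of these cells carried a guide meant to raise JUN from its own promoter. The set comprised 10 genes of the 23459 in the count table, chosen by symbol as genes commonly described as AP-1 targets or as partners of such genes: MMP1, MMP2, MMP3, MMP9, MMP10, MMP13 and MMP14, and TIMP1, TIMP2 and TIMP3. MCF10A is an immortalised, non-tumorigenic human mammary epithelial line. The SAM derivatives, which the labels describe as picked single clones, all carried dCas9-VP64 and MCP-p65-HSF1, so that both groups held the activator proteins. They differed in the lentiviral guide, which was a non-targeting control (NTC, 3 libraries) or sgJUN#1, directed to the JUN promoter (2 libraries). The labels call the libraries replicates without saying whether the cultures were separate, so p-values measure the spread between these libraries. One guide was used, and all cells grew in medium with horse serum, insulin, hydrocortisone, cholera toxin and EGF.

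MMPs are zinc-dependent endopeptidases that are made as inactive proenzymes and, once activated, cut collagens and other matrix proteins as well as surface proteins. MMP1 and MMP13 are interstitial collagenases, MMP3 and MMP10 are stromelysins, MMP2 and MMP9 are gelatinases, and MMP14 is a membrane-anchored MMP that activates the MMP2 proenzyme together with TIMP2. TIMPs block the active site of MMPs, and TIMP3 stays bound to the matrix and also inhibits several ADAM and ADAMTS proteases. JUN and FOS proteins form the AP-1 dimer, and the promoters of several MMP genes were among the first AP-1 targets to be described.

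RefSeq promoter windows on GRCh38.p14 were found for 4 of the 10 genes, MMP10, MMP14, TIMP1 and TIMP3, and not for MMP1, MMP2, MMP3, MMP9, MMP13 and TIMP2. The 250 bases before the start are shown for the 2 inhibitors with the largest fold changes in these data, and for MMP10 as a stromelysin that gave almost no counts. They lie at chrX:47582186-47582435 on the plus strand (TIMP1), chr22:32801455-32801704 on the plus strand (TIMP3) and chr11:102780629-102780878 on the minus strand (MMP10), written 5′ to 3′ of the gene. Capitals mark matches on either strand to the AP-1 site TGAGTCA with up to 1 mismatch, to the TATA box TATAAA and to the GC box GGGCGG.
TIMP1: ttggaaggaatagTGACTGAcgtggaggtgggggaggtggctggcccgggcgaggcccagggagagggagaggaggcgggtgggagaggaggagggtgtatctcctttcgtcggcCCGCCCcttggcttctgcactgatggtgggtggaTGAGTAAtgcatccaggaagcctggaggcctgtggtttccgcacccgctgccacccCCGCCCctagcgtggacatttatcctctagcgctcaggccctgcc
TIMP3: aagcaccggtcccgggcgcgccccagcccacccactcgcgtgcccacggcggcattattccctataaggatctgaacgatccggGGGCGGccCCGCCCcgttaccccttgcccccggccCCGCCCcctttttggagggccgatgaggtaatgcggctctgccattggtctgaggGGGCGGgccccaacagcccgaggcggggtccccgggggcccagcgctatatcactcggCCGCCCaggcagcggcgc
MMP10: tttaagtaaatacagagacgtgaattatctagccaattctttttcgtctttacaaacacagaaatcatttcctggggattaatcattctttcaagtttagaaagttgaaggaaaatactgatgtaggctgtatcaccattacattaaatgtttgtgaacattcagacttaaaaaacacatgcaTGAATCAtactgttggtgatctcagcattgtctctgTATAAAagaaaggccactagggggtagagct

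An exact TGAGTCA was in none of the 4 windows, against 4.20% of 35116 RefSeq promoters of the same length. TIMP1 held TGAGTAA at positions -101 to -95 and TGACTGA at -237 to -231, each at 1 mismatch, where -1 is the base before the start. MMP10 held TGAATCA at -67 to -61, also at 1 mismatch, and a TATA box at -31 to -26. Such 1-mismatch matches occurred in 38.4% of all promoters, a TATA box in 10.7% and a GC box in 42.6%. TIMP3 held 5 GC boxes, TIMP1 held 2 and MMP14 held 1. These matches describe the letters of the window and were not tested as binding sites.

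The 5 libraries held 2455627 to 4988062 counts each, so that 3 counts, the upper limit left by a count of 0, corresponded to 0.601 to 1.22 CPM, counts scaled to a common library total. These limits and all intervals on shares cover counting error only. JUN was examined first and had 91, 89 and 42 counts in NTC replicates 1, 2 and 3 and 831 and 742 counts in sgJUN#1 replicates 1 and 2, or 23.4 ± 13.5 CPM (SD, n = 3) and 217.7 ± 66.2 CPM (SD, n = 2). The fitted log2 change was 3.25 (SE 0.484), and edgeR gave an adjusted p-value of 0.0735, which fell below the threshold without NTC replicate 2 (0.0145) or NTC replicate 3 (0.00122) and stayed above it without NTC replicate 1 (0.279), sgJUN#1 replicate 1 (0.177) or sgJUN#1 replicate 2 (0.320). DESeq2 gave an adjusted p-value of 7.36e-12 and limma-voom 0.0344 for JUN. All 10 mammary epithelial markers on the list used here were detected, although KRT14 had only 4 to 13 counts per library and KRT17 none in NTC replicate 1. They summed to 879.3 to 1901 CPM in the NTC libraries and 1076 to 1521 CPM in the sgJUN#1 libraries. Of the 10, 0 passed the edgeR threshold and 3 had an unadjusted p-value under 0.05, against 1140 of 13616 tested genes. The groups did not overlap for 3 of them as higher and 3 as lower in sgJUN#1, against 25% of all tested genes. Among these, the fitted log2 change was 2.44 for EPCAM, an epithelial adhesion protein (edgeR adjusted p-value 0.209). It was -2.55 for ITGB4, a hemidesmosome integrin (0.459). Of the fibroblast markers, THY1 was at 0 in all libraries and COL1A1, COL1A2 and COL3A1 had at most 11 counts, whereas PDGFRA had 452 to 937 counts and FAP 165 to 393. The fibroblast list of 10 genes summed to 276.2 to 398.6 CPM in NTC and 263.8 to 286.9 CPM in sgJUN#1. The endothelial list of 5 genes summed to at most 16.4 CPM in any library. Of the leukocyte list, CD3E was at 0, PTPRC had at most 10 counts and CSF1R had 574 to 1136, and the list of 8 genes summed to 234.6 to 251.5 CPM in NTC and 228.1 to 251.7 CPM in sgJUN#1. The part of these genes in the MMP and TIMP values was not tested.

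The main feature of the set was a wide gap in level between inhibitors and proteases. The 3 TIMPs summed to 481.6 to 1145 CPM per library, and the 7 MMPs to 3.08 to 7.13 CPM. The MMPs made up 0.527% of the counts of the set in NTC replicate 1 (95% Wilson interval 0.302% to 0.919%), 0.519% in NTC replicate 2 (0.304% to 0.886%) and 1.04% in NTC replicate 3 (0.697% to 1.56%). In sgJUN#1 they made up 0.269% in replicate 1 (0.163% to 0.443%) and 0.772% in replicate 2 (0.500% to 1.19%), so the groups overlapped. Because a 3′ library samples mainly the end of a transcript, CPM were compared between genes without dividing by length.

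**Figure D1:**
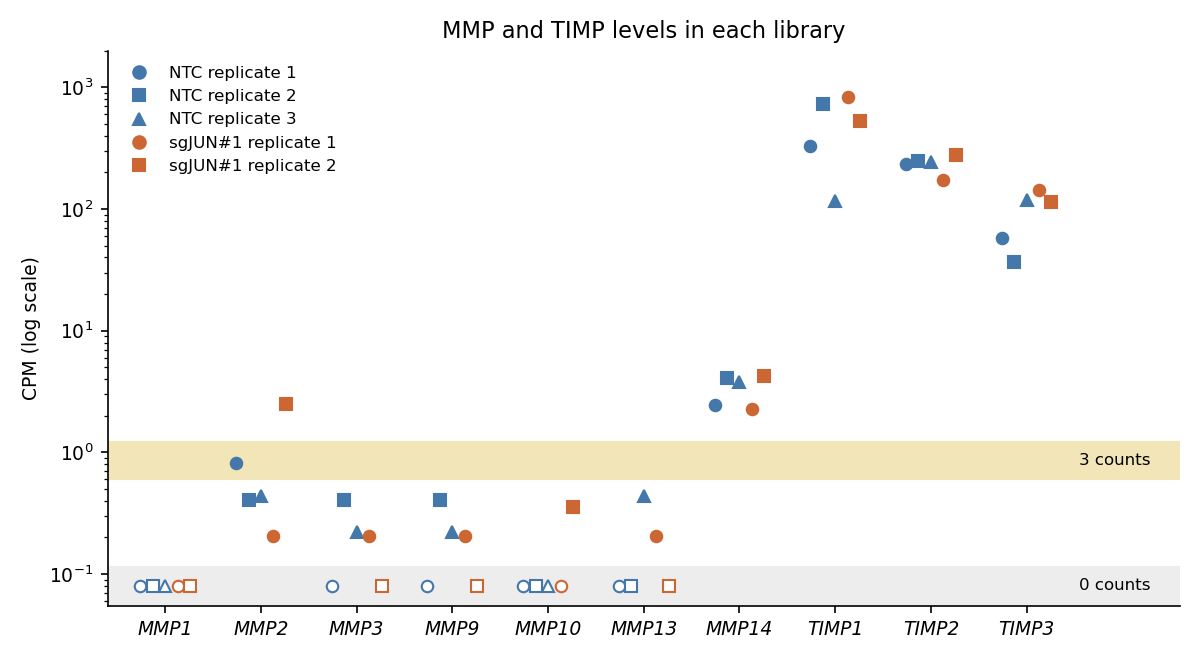
CPM of each of the 10 genes (log axis) in each library, blue for NTC and orange for sgJUN#1, with the replicate given by the marker shape. Open symbols in the grey band are counts of 0, the yellow band spans the CPM of 3 counts in the 5 libraries, and the TIMPs lie between 36.9 and 829.2 CPM while MMP14 lies between 2.26 and 4.28 CPM.

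Among the collagenases, MMP1 had no count in any of the 5 libraries. MMP13 had 2 counts in NTC replicate 3, 1 in sgJUN#1 replicate 1 and none in the other libraries. Both collagenases were thus at or below the limit of detection with and without the JUN guide, and the main fit gave no fold change for either.

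The stromelysins were no more abundant. MMP3 had 0, 1 and 1 counts in NTC replicates 1 to 3 and 1 and 0 counts in sgJUN#1. MMP10 had a single count, in sgJUN#1 replicate 2. Of the gelatinases, MMP9 had 0, 1 and 1 counts in NTC and 1 and 0 in sgJUN#1. MMP2 had 3, 1 and 2 counts in NTC and 1 and 7 in sgJUN#1, and the 7 counts of sgJUN#1 replicate 2, or 2.50 CPM, were the only value above 3 counts among the MMPs other than MMP14. No library held more than 7 counts of MMP1, MMP2, MMP3, MMP9, MMP10 or MMP13, so no large rise was seen with sgJUN#1. A fall or a small rise was not detectable at this depth, and these 6 genes did not pass the filter on low counts.

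MMP14 was the most abundant MMP of the set and the only one that was tested in the main fit. NTC replicates 1 to 3 gave 2.47, 4.06 and 3.76 CPM, and sgJUN#1 replicates 1 and 2 gave 2.26 and 4.28 CPM, from 9 to 17 counts per library. The sgJUN#1 libraries held both the lowest and the highest value, so the groups overlapped. The log2 fold change was -0.12 (SE 0.491), a fold of 0.921 with a 95% interval of 0.429 to 1.98, and the edgeR adjusted p-value was 0.971. Without sgJUN#1 replicate 1 the log2 fold change was 0.33, so that its sign rested on that library.

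Position along the genome was shared by several of these proteases. MMP1, MMP3, MMP10 and MMP13 lie with 5 other MMP genes in a cluster of 435.2 kb on chromosome 11 (GRCh37, 102391239 to 102826461). The 9 genes of the cluster together had 1 to 7 counts per library and 20 counts in all, no more than 2 for any gene in any library, and MMP1, MMP12 and MMP27 had none. The genes beside the cluster were well covered: YAP1 had 2503 counts over the 5 libraries, TMEM123 4946 and DCUN1D5 1239. Of the 7 flanking genes, 0 passed the edgeR threshold, 0 passed with DESeq2 or limma-voom, and the median log2 fold change was 0.16. An unadjusted edgeR p-value under 0.05 was found for 2 of them, against 1140 of 13616 tested genes. BIRC2, an inhibitor of apoptosis, had a log2 fold change of 0.50 (SE 0.190), with 0.509 as the edgeR adjusted p-value, and its groups did not overlap. TMEM123, the other flanking gene without overlap, had 215.1 and 241.3 CPM in the sgJUN#1 libraries and at least 268.9 CPM in each NTC library, and its log2 fold change was -0.40. These were 2 of 7 genes, against 25% of all tested genes. DYNC2H1 had a log2 fold change of 0.78, with 0.555 as the edgeR adjusted p-value, and the log2 fold changes of YAP1, BIRC3, DCUN1D5 and PDGFD were 0.09, 0.16, 0.27 and 0.08, respectively.

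**Figure D2:**
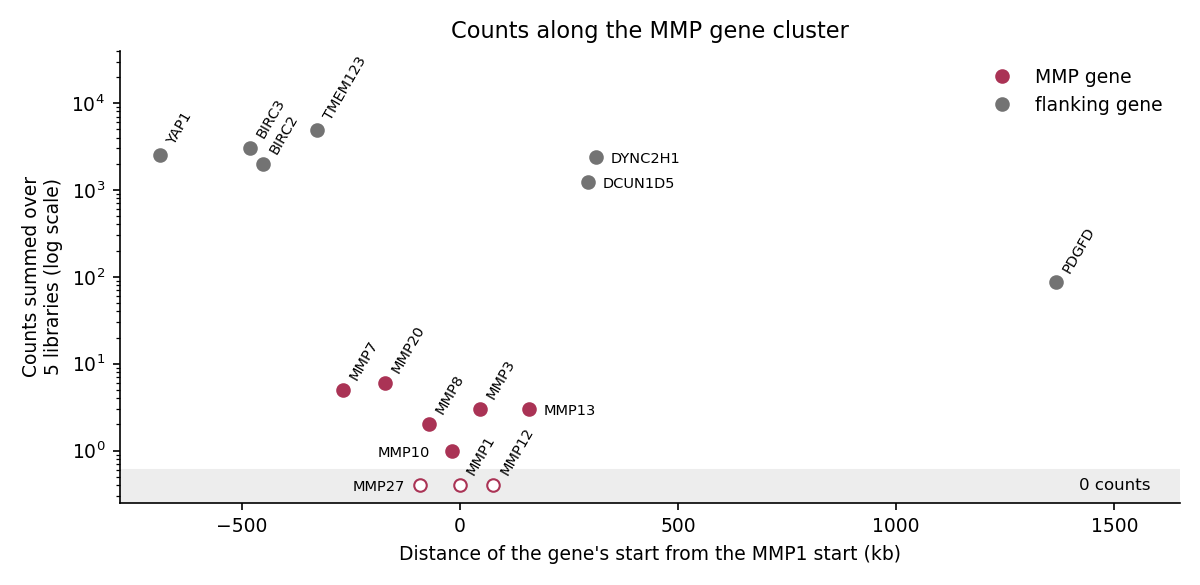
Counts summed over the 5 libraries (log axis) for the 9 MMP genes of the chromosome 11 cluster (red) and 7 flanking genes (grey), placed by the distance in kb of each gene's start from the start of MMP1. Open symbols in the grey band are genes with 0 counts, and the MMP genes have 0 to 6 counts each where flanking genes have 86 to 4946.

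The inhibitors were read at high depth, yet 0 of the 4 tested genes of the set passed the edgeR threshold of an adjusted p-value under 0.05. Over all 13616 tested genes 0.206% passed, 0.0808% as higher and 0.125% as lower in sgJUN#1. None of the 4 had an unadjusted p-value under 0.05, and none passed with DESeq2 or limma-voom. For none of the 4 did the libraries of the groups separate, against 25% of all tested genes. The median log2 fold change of the 4 was 0.34, against -0.01 over all tested genes.

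TIMP1, a secreted inhibitor of most soluble MMPs, was the most abundant gene of the set on average (GRCh37 chromosome X, 47441807 to 47446188). NTC replicates 1, 2 and 3 gave 329.6, 723.6 and 116.7 CPM, and sgJUN#1 replicates 1 and 2 gave 829.2 and 526.1 CPM. In bulk RNA, fewer expressing cells and less RNA per cell cannot be told apart. Both sgJUN#1 libraries lay above NTC replicates 1 and 3, and NTC replicate 2 lay between them. The log2 fold change was 0.80 (SE 0.688), a fold of 1.74 with a 95% interval of 0.543 to 5.60, and the edgeR adjusted p-value was 0.802. The exact two-sided permutation test over the libraries gave p = 0.4, where 0.1 is the smallest possible with 3 against 2. The fold change depended on which NTC library was used, with a log2 value of 1.60 without NTC replicate 2 (edgeR adjusted p-value 0.268) and 0.37 without NTC replicate 3 (0.918). Leaving out sgJUN#1 replicate 1 gave 0.43.

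TIMP1 was uneven among the controls. Its highest NTC library stood 6.20 times above its lowest, and the SD of its log2 CPM over the NTC libraries, 1.32, was at percentile 99.4 of all tested genes. NTC replicate 2, the highest for TIMP1, was also the highest NTC library for PLAUR, the urokinase receptor, at 30.1, 64.9 and 22.3 CPM in NTC replicates 1 to 3. PLAUR was picked after its values were seen, and other genes named below, such as FURIN and LRP1, were highest in NTC replicate 3. NTC replicate 3, the lowest for TIMP1, was also the NTC library with the fewest JUN counts (9.28 CPM). TIMP3 ran the other way among the controls, highest in NTC replicate 3 (119.3 CPM). It was lowest in NTC replicate 2 (36.9 CPM), where JUN was highest (36.1 CPM). The part of these library differences in the TIMP1 values was not tested.

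TIMP2, which binds MMP2 and MMP14, was the steadiest gene of the set among the controls (chromosome 17, 76849059 to 76921469). The NTC libraries gave 233.2, 250.3 and 245.7 CPM, and the sgJUN#1 libraries 172.9 and 277.3 CPM. The NTC SD of its log2 CPM, 0.0528, was at percentile 2.86 of all tested genes, whereas the sgJUN#1 libraries lay on either side of the 3 NTC libraries. Its log2 fold change was -0.11 (SE 0.230), a fold of 0.925 with a 95% interval of 0.646 to 1.32, and the edgeR adjusted p-value was 0.934. The sign rested on sgJUN#1 replicate 1, without which the value was 0.19.

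TIMP3, the matrix-bound inhibitor, had a fold change close to that of TIMP1, and which of them was larger changed between fits (chromosome 22, 33197691 to 33259028). The NTC libraries gave 57.8, 36.9 and 119.3 CPM, and the sgJUN#1 libraries 142.5 and 113.3 CPM. Only NTC replicate 3 reached the range of the sgJUN#1 libraries, lying between them. The log2 fold change was 0.83 (SE 0.426), a fold of 1.78 with a 95% interval of 0.899 to 3.52, with an edgeR adjusted p-value of 0.664 and p = 0.3 in the exact two-sided permutation test. Without NTC replicate 3 the log2 fold change was 1.42 and passed the threshold (edgeR adjusted p-value 0.0380). Without NTC replicate 2 the value was 0.53 (0.723).

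**Figure D3:**
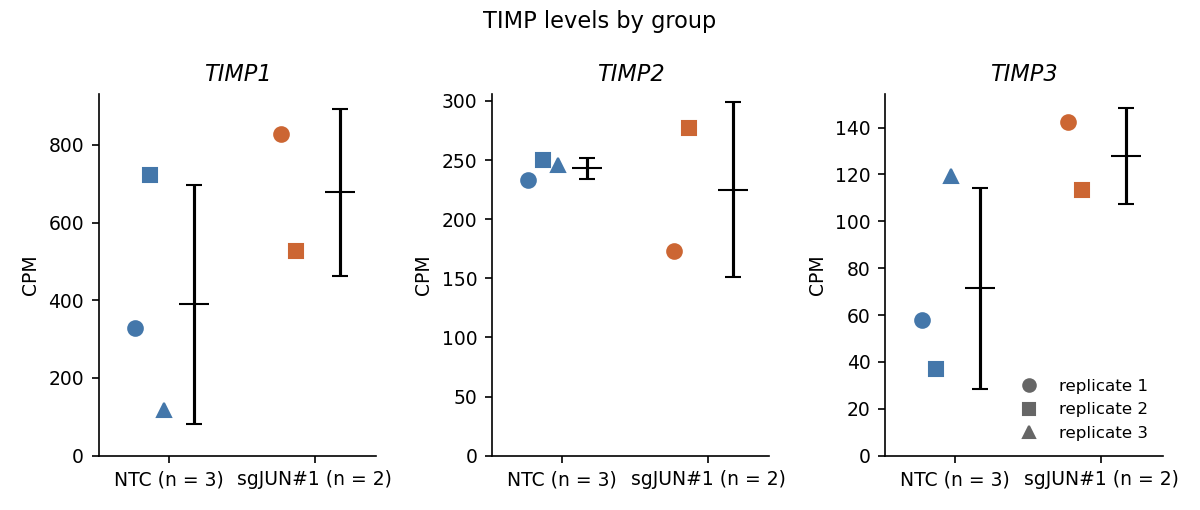
CPM of TIMP1, TIMP2 and TIMP3 (linear axes from 0) in each library of NTC and sgJUN#1, with the mean and SD of each group as a black bar beside the points. In TIMP1 and TIMP3 one NTC library lies among the sgJUN#1 libraries, replicate 2 at 723.6 CPM and replicate 3 at 119.3 CPM, respectively, and in TIMP2 the NTC libraries lie between 233.2 and 250.3 CPM.

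The inhibitors did not vary together across the libraries. TIMP1 gave 53.1%, 71.6% and 24.2% of the TIMP counts in NTC replicates 1 to 3 and 72.4% and 57.4% in sgJUN#1, and the 95% Wilson intervals of NTC replicate 3 (22.5% to 26.1%) and of every other library did not overlap. TIMP3 gave 9.32%, 3.65% and 24.8% in NTC and 12.5% and 12.4% in sgJUN#1. TIMP1 ranked above TIMP2 in 4 libraries and below it in NTC replicate 3, so the order of these neighbours was not fixed beyond the spread. TIMP2 ranked above TIMP3, and TIMP3 above MMP14, in each of the 5 libraries.

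**Figure D4:**
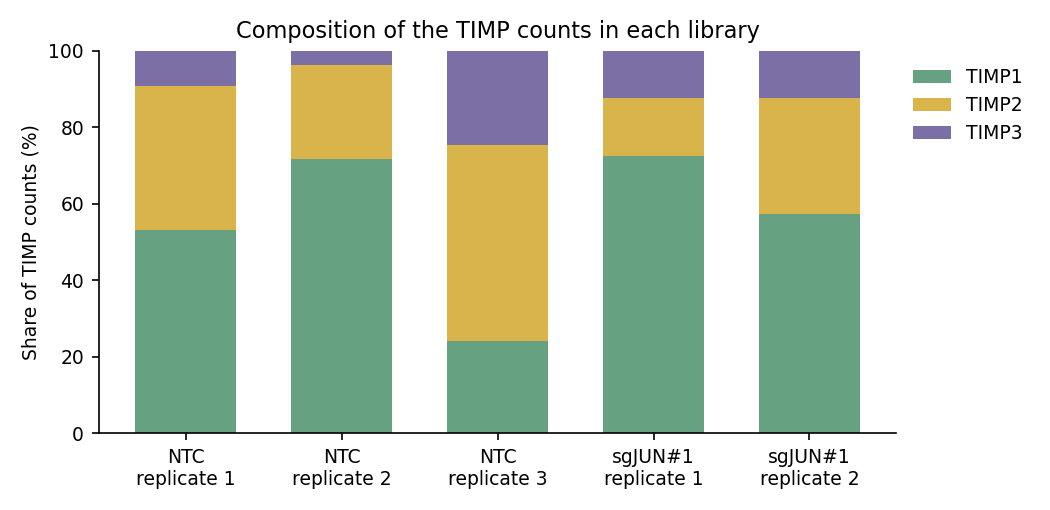
Share of the summed TIMP counts (percent, bars stacked to 100) that came from TIMP1, TIMP2 and TIMP3 in each of the 5 libraries. TIMP1 takes the largest share in 4 libraries, and in NTC replicate 3 TIMP2 takes 51.0%, TIMP3 24.8% and TIMP1 24.2%.

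The counts of TIMP1 and TIMP3 nearly equalled those of genes in which they lie. TIMP1 lies inside SYN1 and TIMP3 inside SYN3, each on the opposite strand, and SYN1 and SYN3 encode synapsins, proteins of synaptic vesicles. SYN1 exceeded TIMP1 by 2 to 12 counts per library, at most 2.27% of the TIMP1 count, and SYN3 exceeded TIMP3 by 14 to 58 counts, 8.37% to 17.1%. In each library the host gene thus had at least the count of the gene within it, as in 66 of 100 such pairs of the table with at least 100 counts for the inner gene. How reads in such overlaps were assigned is not given in the sources used here, so that reads of the paired genes cannot be told apart. The counts of SYN1 and SYN3 are therefore not read here as expression of the synapsins. The gene with the profile nearest to TIMP3, by the root mean square difference of centred log2 CPM over the 5 libraries, was SYN3 (0.0402), followed by HAS2-AS1 (0.164) and ST6GALNAC2 (0.178). The log2 fold changes of SYN1 and SYN3 were 0.80 and 0.80, and like TIMP3, SYN3 passed without NTC replicate 3 (edgeR adjusted p-value 0.0447). As SYN3 counts nearly equalled TIMP3 counts, the likeness and the call of SYN3 are not separate from those of TIMP3. LGALS3BP, a neighbour of TIMP2, had a log2 fold change of -0.73 (edgeR adjusted p-value 0.624). TIMP2 contains CEP295NL, which had at most 3 counts in any library.

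Beyond the set, the remaining MMP genes were also scarce. Of the 16 other MMPs in the table, 10 had at most 3 counts in every library and 4 were tested, MMP16, MMP19, MMP24 and MMP28. TIMP4 had none. Of the tested ones 0 passed the edgeR threshold and 0 had an unadjusted p-value under 0.05, and with DESeq2 and limma-voom 0 passed. MMP24, a membrane-type MMP, gave 7.40, 3.65 and 7.07 CPM in the NTC libraries and 8.22 and 15.7 CPM in the sgJUN#1 libraries, so that the groups did not overlap. That was 1 of the 4 tested MMPs, against 25% of all tested genes. The log2 fold change of MMP24 was 0.91 (SE 0.410), with 0.602 as the edgeR adjusted p-value. MMP24 lies inside MMP24OS on the opposite strand, a gene named here after its values were seen. MMP24OS had 20 to 80 counts per library against 9 to 44 for MMP24, and at least the MMP24 count in every library. As with TIMP1 and TIMP3, reads of this pair cannot be told apart. MMP16, a gene spanning 296.0 kb, and MMP28 had log2 fold changes of 0.51 (SE 0.401) and 0.35 (SE 0.537).

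A list of 24 genes that activate, inhibit or clear MMPs was examined beside the set, as proteolysis of the matrix also depends on these. Of its 16 tested genes, 2 passed the edgeR threshold, both higher in sgJUN#1, against 0.206% of all tested genes, and the median log2 fold change was 0.05. An unadjusted p-value under 0.05 was found for 7 of the 16, against 1140 of 13616 genes, and the groups did not overlap for 10, 7 as higher and 3 as lower, against 25% of all genes. The list was chosen with earlier results of these data known, so its counts beside these shares are not a test of the list. PLAT, the tissue plasminogen activator, gave 25.5, 26.4 and 24.5 CPM in the NTC libraries and 258.9 and 210.6 CPM in the sgJUN#1 libraries. Its log2 fold change was 3.21 (SE 0.200), and edgeR gave an adjusted p-value of 2.2e-04. SERPINB2, an inhibitor of plasminogen activators, had 2, 1 and 1 counts in NTC and 65 and 34 in sgJUN#1, a ratio of counts per library total of 33.8 with an exact 95% counting interval of 12.8 to 126.4 (edgeR adjusted p-value 0.00307). With at most 2 counts in each NTC library, SERPINB2 passed the filter on low counts only through the sgJUN#1 libraries, where it was high. Plasmin, the product of these activators, cuts MMP proenzymes. PLG, the gene of its precursor, had at most 2 counts in any library, and any precursor from the horse serum in the medium was not measured. The urokinase gene PLAU and its receptor PLAUR had log2 fold changes of 1.34 (SE 0.441) and 1.02 (SE 0.390), and neither passed (edgeR adjusted p-values 0.436 and 0.520). LRP1, an endocytic receptor that clears MMP and TIMP complexes, averaged 21.2 ± 7.54 CPM over the NTC libraries (SD, n = 3) and 6.35 ± 4.62 CPM over the sgJUN#1 libraries (SD, n = 2). Its log2 fold change, -1.85 (SE 0.491), did not pass with edgeR (adjusted p-value 0.281) and passed with DESeq2 (0.0380). FURIN, which removes the propeptide of MMP14, and RECK, a membrane-anchored MMP inhibitor, had log2 fold changes of -0.20 (SE 0.206) and -0.43 (SE 0.255).

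**Figure D5:**
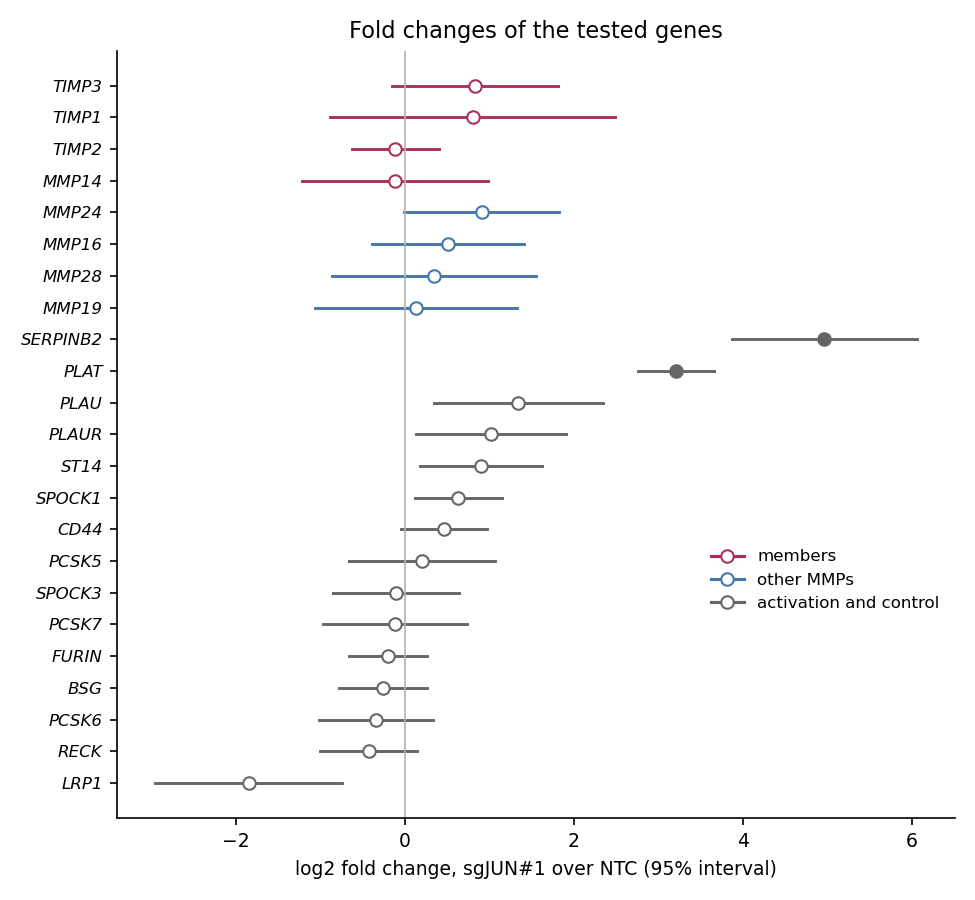
Log2 fold changes of sgJUN#1 over NTC with 95% intervals from the edgeR fit for the tested genes of the set (red), other MMPs (blue) and genes of MMP activation and control (grey), of which 1 tested gene is not drawn. Filled symbols have an adjusted p-value under 0.05, which are PLAT and SERPINB2, and the intervals of the 4 genes of the set all include 0.

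The ADAM and ADAMTS proteases, relatives of the MMPs that TIMP3 can also inhibit, were more abundant than the MMPs, at 482.0 to 696.1 CPM per library for 31 genes. Of 18 tested, 0 passed the edgeR threshold and 0 passed with DESeq2 or limma-voom, with a median log2 fold change of 0.02. An unadjusted edgeR p-value under 0.05 was found for 3 of them, against 1140 of 13616 tested genes. ADAMTS6 gave 11.8, 99.4 and 20.8 CPM in the NTC libraries and 104.0 and 228.5 CPM in the sgJUN#1 libraries, so that the groups did not overlap. Its log2 fold change was 1.95 (SE 0.875), with 0.635 as the edgeR adjusted p-value. It was highest among the controls in NTC replicate 2, the library with the highest TIMP1, and without that library its log2 fold change was 3.33 and passed (0.0198). ADAMTS7 had a log2 fold change of -1.56 (SE 0.514, adjusted p-value 0.428 by edgeR) and ADAMTS12 one of 1.18 (SE 0.403, 0.459). ADAM15, with the smallest unadjusted p-value of the list (0.00742), had a log2 fold change of -0.90 and an edgeR adjusted p-value of 0.351. The groups did not overlap for 3 genes of the list, ADAMTS6 as higher and ADAMTS7 and ADAM15 as lower, against 25% of all tested genes. ADAM17, the sheddase that TIMP3 inhibits, had one of -0.01 (SE 0.203, 0.993).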

How the data were processed

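RNA for 5 libraries of MCF10A SAM cells was sequenced with the QuantSeq 3′ kit. Per the submitters' processing notes cutadapt 4.2 and Bowtie2 2.3.5.1 were used with the build hg19, and the authors counted reads over genes with countOverlaps. The table deposited by the authors holds unnormalised read counts for each gene. The gene annotation, the strand setting and any molecular identifiers were not given in the sources used here. All 3 NTC libraries of the labels were used, whereas the study gives n = 2 biological replicates for its own comparison. Symbols came from RefSeq for 23308 of 23459 Entrez identifiers, and positions from the GENCODE annotation on GRCh37, the build of hg19.

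The main test was edgeR's quasi-likelihood F test (edgeR 4.0.16, R 4.3.3, TMM, filterByExpr, robust estimation, group as the only term), which kept 13616 genes, with Benjamini-Hochberg adjustment over all of them and a threshold of 0.05. The procedure was checked on simulated counts with the same spread setting for every gene, which does not show its power in these more uneven libraries. SE is the absolute log2 fold change over the square root of F. CPM used TMM-scaled library totals. Alternatives were DESeq2 1.42.0, limma-voom (limma 3.58.1), RLE or no normalisation factors, no filter, the replicate block and leaving out each library. Named genes were the set, JUN, all flanking and overlapping genes, and from each other list the genes past the threshold and the 3 with the largest absolute fold change, together with the 3 genes most like TIMP3. PLAU, PLAUR, PLG, FURIN, RECK, ADAM15, ADAM17 and the marker genes named singly were chosen after their values were seen. The set and the lists were chosen with earlier results of these data known. Values of 1 gene of the activation and control list are not reported here, although it stays in that list's counts. MMP24-AS1 was listed and had no row under that symbol.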

Additional observations from a re-analysis of the deposited data

How the results depend on the processing

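All members of the set stayed below the threshold under RLE normalisation, library size alone, DESeq2, limma-voom and no filter. With the replicate block 1 member passed, TIMP3 (1.45, edgeR adjusted p-value 0.00932), together with SYN3, in which it lies, and JUN also passed (2.82, 9.46e-05). Replicate 3 was only in NTC, so the block took that library out of the comparison. Leaving out NTC replicate 3 gave similar log2 fold changes, 1.42 for TIMP3 and 2.84 for JUN, so these settings are not separate checks. With 1 library left out at a time, 0 to 1 members passed (TIMP3, without NTC replicate 3), 0 to 1 of the overlap partners (SYN3, likewise) and 0 to 1 of the ADAM and ADAMTS genes (ADAMTS6, without NTC replicate 2). The groups did not overlap in 0 to 4 of the 4 tested members, against 37.2% to 50.9% of all genes in the same fits, the 4 arising without sgJUN#1 replicate 2. A lone sgJUN#1 library is assumed to vary like the others. In the 11 alternatives TIMP1 kept its direction, from 0.37 to 1.60, as did TIMP3, from 0.53 to 1.45. MMP14 and TIMP2 reversed without sgJUN#1 replicate 1, to 0.33 and 0.19, and their values with 1 library left out ran from -0.57 to 0.33 and from -0.49 to 0.19. The log2 ratio of the summed MMPs, 0.17, ran from -0.55 to 0.65 in the same way, and that of the summed TIMPs, 0.55, moved by less than the spread between NTC libraries in each alternative that gave a value. PLAT and SERPINB2 passed in all 11. Over all genes 28 passed, against 136 with DESeq2, 148 with no filter, 106 with the replicate block and 10 to 57 with 1 library left out. For these counts the cause was not tested. The labels do not say that equal replicate numbers mark a shared day, so libraries with the same number were treated as unpaired. The difference between replicates 1 and 2 correlated between the groups over genes with r = 0.0146. That value rests on 2 pairs and cannot show that pairing is absent. The library identifiers of equal replicate numbers are adjacent across the groups, and what this means was not tested. Depth limits the MMPs: 6 of 7 lay at 3 counts or fewer in every library but for MMP2 in sgJUN#1 replicate 2. No large rise was seen in these genes, and a fall or a small rise could not be measured.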
